A study of Mus musculus with 6 samples.

Results

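The antioxidant and Nrf2 response genes described here are 34 genes that code for enzymes which remove superoxide and peroxides, for the thioredoxin and glutathione systems that keep those enzymes reduced, and for the transcription factor Nrf2 with its inhibitor and detoxifying targets. They were taken by gene symbol, and all 34 were found among the 23183 symbols of every library. RNA of isolated cerebral microvessels was sequenced from 3 wild type (WT) mice and 3 TEKCRIF1 knockout (KO) mice, 1 library per mouse, numbered here as in the sample titles. WT mice were TEK-cre, Crif1+/+ and KO mice were TEK-cre, Crif1 flox/flox, so that both groups carried the Cre transgene. The strain label is C57BL/6, no mouse was treated, and the age and sex of the sequenced mice are not given in the sources used here. The *Tek* promoter directs Cre to endothelial cells and is known to be active in blood-forming cells as well, whereas the microvessel preparation also holds pericytes and other cells of the vessel wall. Levels are given as FPKM, the number of sequenced fragments scaled to the length of the transcript and to the mapped fragments of the library.

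Superoxide leaks from the respiratory chain, superoxide dismutases convert it to hydrogen peroxide, and catalase, glutathione peroxidases and peroxiredoxins reduce the peroxide to water. Glutathione peroxidases draw on glutathione, which glutathione reductase recycles, and most peroxiredoxins draw on thioredoxin, which thioredoxin reductase recycles. Nrf2, encoded by *Nfe2l2*, is held at a low level by Keap1, which presents it to a Cul3 ubiquitin ligase. When Keap1 is oxidized, Nrf2 accumulates and binds antioxidant response elements in the promoters of genes such as *Nqo1*, *Hmox1* and *Gclm*. *Crif1*, also called *Gadd45gip1*, is needed for making the respiratory chain subunits that mitochondrial DNA encodes, and brain endothelial cells are known for their rich supply of mitochondria.

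No member passed limma's moderated test of KO against WT mice on log2(FPKM + 1). After adjustment 0 of the 34 members were under 0.05, and before it likewise 0, against 0.0% and 5.88% of the 14247 genes tested. All 34 passed the low-value filter, a mean over the 6 libraries of 1 FPKM or more. The median difference, KO minus WT on the log2(FPKM + 1) scale, was -0.02 over the members and -0.01 over all genes tested, with 14 members higher and 20 lower in KO mice. The members' median was 0.12 without KO 2. Single members ranged from -0.40 to 0.42. The 95% intervals of 30 of the 34 members lay within a 2-fold difference in either direction, and the medians of their lower and upper bounds were -0.52 and 0.52. *Keap1* was the single member in which the groups did not overlap, and it was lower in all 3 KO mice. This is 1 of 34 members lying entirely below WT, against 5.7% of all genes tested, and 0 members lay entirely above WT, against 5.37%.

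Some facts of the libraries bear on every value. *Crif1*, the targeted gene, had 18.8, 15.3 and 16.5 FPKM in the WT mice, in the order of their numbers, against 10.8, 7.54 and 10.4 in the KO mice. Its difference was -0.77 on the log2(FPKM + 1) scale (limma, unadjusted p = 0.00534, adjusted p = 0.841). The smallest adjusted p over all genes tested was also 0.841, so the adjusted test did not call the targeted gene either. An adjusted p of 0.841 given for other genes is this same minimum. Depth, estimated from the step that a single fragment makes in 4518 genes with 1 transcript, was 8900000 to 11600000 fragments in WT libraries and 6500000 to 11900000 in KO libraries, with KO 2 the shallowest. A transcript of 1 kb would then reach 0.252 to 0.462 FPKM from 3 fragments, below every member value. Endothelial markers (*Pecam1*, *Cldn5*, *Cdh5*, *Flt1*, *Slco1a4* and *Tek*) were present in every library and summed to 712 to 986 FPKM in WT mice and 638 to 841 in KO mice. Of the 6, *Cdh5* (VE-cadherin, of endothelial junctions) was below WT in every KO mouse, at 38.1 to 50.8 against 86.7 to 92.4 FPKM. The others overlapped, with *Cldn5*, *Flt1* and *Tek* lower by mean in KO mice. *Pecam1* had the higher mean in KO mice (90.9, 69.6 and 55.8 FPKM in WT against 81.8, 58.8 and 88.9). So had *Slco1a4* (60.4, 44.0 and 36.6 FPKM in WT against 47.4, 45.5 and 54.7 in KO mice). In such a mixed preparation, fewer cells of a type and less RNA per cell cannot be told apart. The summed levels of other markers overlapped or met between WT and KO mice, at 789 to 1285 and 833 to 935 FPKM for pericytes, 225 to 561 and 257 to 754 for smooth muscle, 46.4 to 71.0 and 41.1 to 46.4 for perivascular macrophages, 209 to 321 and 108 to 276 for oligodendrocytes, 173 to 359 and 149 to 309 for neurons, and 1765 to 2425 and 1209 to 2341 for red cell precursors (4 of 5 genes had a row, and *Hbb-bs* was listed at 0 in 4 libraries). Single genes of these lists that lay below WT in every KO mouse are given, with the fibroblast, astrocyte and microglia markers, beside *Keap1*. Markers of the choroid plexus, the tissue that secretes cerebrospinal fluid (*Ttr*, *Folr1*, *Kl* and *Clic6*), summed to 2844 to 3309 FPKM in WT mice and 2941 in KO 2 but to 8772 FPKM in KO 1 and 10524 FPKM in KO 3. Each of these 4 genes was higher in KO 1 and KO 3 than in any other library.

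The 34 genes spanned a wide range of levels. *Sod1*, the cytosolic copper and zinc superoxide dismutase, was first with a mean of 412 ± 44 FPKM in WT mice (SD, n = 3). *Gpx4*, the glutathione peroxidase that reduces lipid peroxides in membranes, followed at 299 ± 44.4 FPKM, and the lowest WT value of *Sod1* lay above the highest WT value of *Gpx4*. The next 4 members were *Prdx2*, *Prdx5*, *Txnip* and *Gpx1*, with WT means of 205, 192, 169 and 166 FPKM, and their WT ranges overlapped. *Txnrd2*, the mitochondrial thioredoxin reductase, was last at 5.73 ± 0.835 FPKM, which was still above 59.7% of all symbols in WT mice. In the plot of levels by family, the dismutase of the cytosol and several peroxidases and peroxiredoxins stand high, whereas the glutathione and thioredoxin reductases and the genes of glutathione synthesis stand low.

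**Figure D1:**
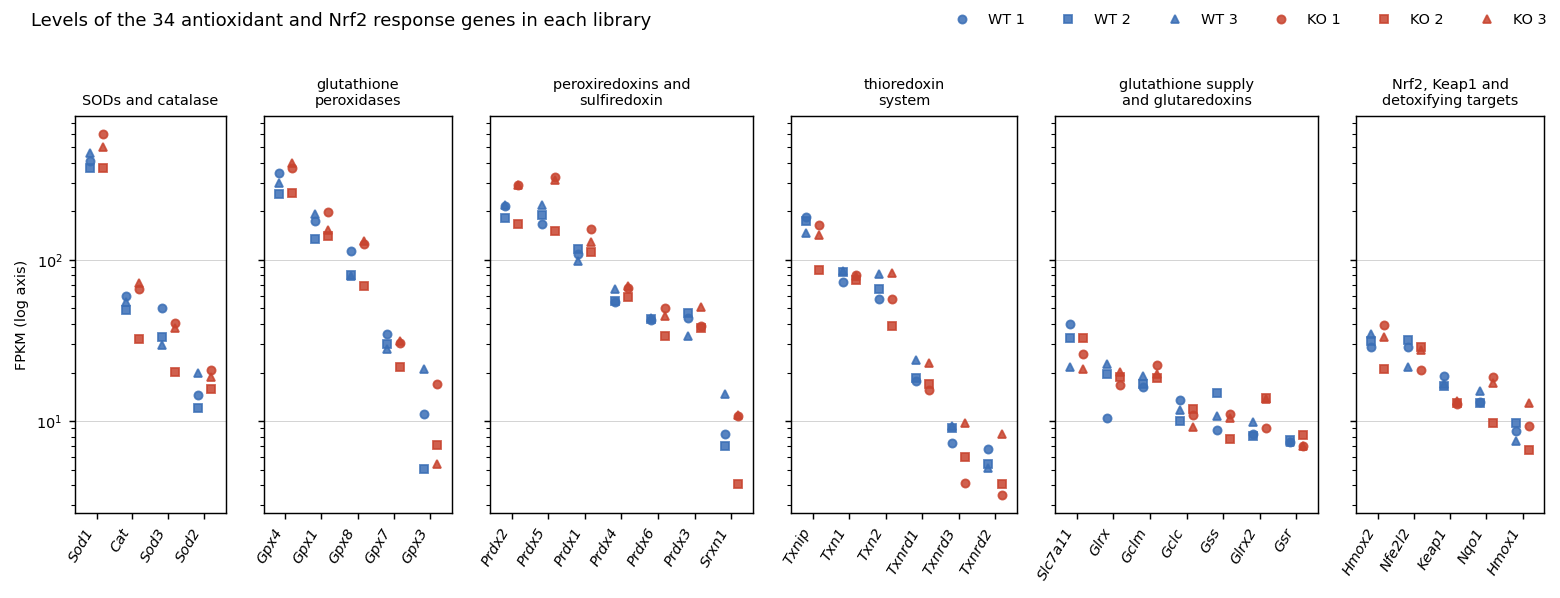
FPKM of each of the 34 genes in each library on a log axis, in 6 panels by family and ordered within a panel by WT mean. Circles, squares and triangles mark mice 1, 2 and 3 of a group, blue for WT and red for KO. WT and KO points overlap for every gene except *Keap1*, where the KO points lie at 12.8 to 13.4 FPKM and the WT points at 16.6 to 18.9 FPKM.

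Superoxide dismutases and catalase were led by *Sod1*, with 410, 369 and 457 FPKM in WT mice 1, 2 and 3 against 605, 370 and 498 FPKM in KO mice 1, 2 and 3, the order used throughout. KO 1 and KO 3 were above every WT mouse and KO 2 was level with the lowest of them, so the groups overlapped (exact permutation p = 0.3, two-sided, n = 3 each). *Sod2*, the manganese enzyme of the mitochondrial matrix, was the lowest of the family. Its values were 14.5, 12.1 and 19.9 FPKM in WT mice and 20.8, 15.7 and 18.8 in KO mice, which again overlapped (exact permutation p = 0.3, n = 3 each). *Sod3*, the secreted dismutase, had means of 37.7 ± 11.2 FPKM in WT and 32.8 ± 11.1 FPKM in KO mice. *Cat*, the peroxisomal catalase, had nearly equal means of 54.3 ± 5.35 and 56.6 ± 21.1 FPKM, while its highest KO value was 2.2 times its lowest, against 1.22 times among WT mice.

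Among the 5 glutathione peroxidases *Gpx4* was highest, at 343, 254 and 299 FPKM in WT mice and 370, 261 and 396 in KO mice. *Gpx3*, the secreted enzyme found in plasma, was lowest and the least even of the members, at 11.1, 5.06 and 20.9 FPKM in WT mice and 17.1, 7.15 and 5.41 in KO mice. WT mice alone differed 4.13-fold in *Gpx3*, and the group means were 12.4 and 9.87 FPKM. *Gpx1*, the general cytosolic enzyme, averaged 166 ± 29.2 FPKM in WT and 164 ± 29.8 FPKM in KO mice. *Gpx7* and *Gpx8*, which act in the endoplasmic reticulum, averaged 30.9 and 91.2 FPKM in WT mice against 27.8 and 108 FPKM in KO mice. Of the family, 2 members were higher and 3 lower in KO mice, with a median difference of -0.02 on the log2 scale that ran from -0.17 (without WT 2 or KO 1) to 0.12 (without WT 3), and none passed the test.

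Peroxiredoxins reduce peroxides through a reactive cysteine, and sulfiredoxin, encoded by *Srxn1*, repairs that cysteine when it is over-oxidized. *Prdx2*, abundant in cytosol and in red cells, was at 217, 181 and 218 FPKM in WT mice and 289, 166 and 292 in KO mice. *Prdx5*, found in mitochondria and other compartments, was at 166, 189 and 220 FPKM in WT mice and 328, 150 and 312 in KO mice. In both genes KO 1 and KO 3 were above every WT mouse and KO 2 was below every WT mouse (exact permutation p = 0.4 for each, n = 3 each). *Srxn1* was lowest, at 8.26, 7.04 and 14.8 FPKM in WT mice and 10.7, 4.1 and 10.9 in KO mice, with no separation of the groups. *Prdx6* was the steadiest of the family in WT mice, at 42.6, 43.0 and 43.6 FPKM, and spread from 33.9 to 49.9 FPKM in KO mice. *Prdx1*, a Nrf2 target of the cytosol, averaged 108 ± 8.85 and 131 ± 21.9 FPKM, *Prdx3* of the mitochondrial matrix 41.5 ± 6.84 and 42.4 ± 7.22 FPKM, and *Prdx4* of the endoplasmic reticulum 58.7 ± 6.43 and 64.9 ± 5.12 FPKM in WT and KO mice. In KO mice 5 of the 7 genes had the higher mean, with a median difference of 0.14 on the log2 scale, and none passed the test.

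The thioredoxin system was the family with every mean on the lower side in KO mice, 6 of 6, with a median difference of -0.20 on the log2 scale. None of the 6 passed the test. *Txnip*, the thioredoxin-interacting protein that binds and inhibits thioredoxin, was highest, at 185, 175 and 147 FPKM in WT mice and 165, 86.9 and 143 in KO mice (exact permutation p = 0.2, n = 3 each). KO 2 was far below the rest, and the KO 1 value lay within the WT range. *Txnrd2* was lowest, at 6.67, 5.43 and 5.09 FPKM in WT mice and 3.47, 4.1 and 8.34 in KO mice. Here KO 1 and KO 2 were below every WT mouse and KO 3 was above every one. *Txnrd3*, a reductase best known from testis, had the same form, with KO values of 4.12, 6.02 and 9.67 FPKM against a WT mean of 8.59 ± 1.11 FPKM. Cytosolic *Txn1* was even over the mice, at 80.3 ± 6.75 FPKM in WT and 78.2 ± 3.26 FPKM in KO mice, and so was its reductase *Txnrd1*, at 20.0 ± 3.4 and 18.5 ± 3.85 FPKM. Mitochondrial *Txn2* averaged 68.1 ± 12.4 and 59.7 ± 22.4 FPKM. The family median was -0.06 without KO 2 and -0.49 without KO 3, and *Txn1*, *Txn2*, *Txnrd1* and *Txnrd2* each took the other sign in 1 of the 15 alternative settings. The summed level of the family was 346, 357 and 351 FPKM in WT mice against 326, 227 and 346 FPKM in KO mice, with KO 2 far below the others. The inhibitor *Txnip* was the largest part of this sum in every library, so the sum does not measure thioredoxin itself. *Txn1* was at 74.6 FPKM in KO 2.

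Genes that supply and recycle glutathione were even between the groups as a family. Their summed levels were 105, 110 and 103 FPKM in WT mice and 103, 112 and 101 in KO mice. *Slc7a11*, the cystine carrier of the plasma membrane that feeds glutathione synthesis, was highest, at 39.9, 32.6 and 21.7 FPKM in WT mice and 26.0, 32.7 and 21.1 in KO mice. *Gsr*, glutathione reductase, was lowest and nearly flat, at 7.46, 7.61 and 7.42 FPKM in WT mice and 6.96, 8.21 and 7.04 in KO mice. The groups overlapped in both genes. *Gclc* and *Gclm*, the catalytic and modifier subunits of the enzyme that makes the first step of glutathione synthesis, averaged 11.7 and 17.4 FPKM in WT mice against 10.7 and 20.2 FPKM in KO mice. *Gss*, the synthetase of the last step, averaged 11.4 ± 3.15 and 9.76 ± 1.74 FPKM. Of the glutaredoxins, which use glutathione to reduce protein disulfides, cytosolic *Glrx* averaged 17.5 ± 6.25 and 18.6 ± 1.77 FPKM. Mitochondrial *Glrx2* had the highest ratio of KO to WT means of all members, 1.39, from 8.34, 8.06 and 9.93 FPKM in WT mice to 9.01, 14.0 and 13.7 FPKM in KO mice. KO 1 lay inside the WT range of *Glrx2*, and the difference did not pass (exact permutation p = 0.2, n = 3 each, and limma adjusted p = 0.841). On the log2 scale it was 0.42, and 0.26 with the GC trend removed. With a mouse left out it ran from 0.32 (without KO 2) to 0.61 (without KO 1). *Prdx5* differed more than *Glrx2* with the GC trend removed (0.53) and without KO 2 (0.74).

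*Keap1*, the inhibitor of Nrf2, was the one gene of the 34 whose groups stood apart. It lies at chr9:21229730-21239361 on the minus strand of GRCm38 (mm10), with 5 exons in a transcript of 3614 bases. Its values were 18.9, 16.6 and 17.1 FPKM in WT mice and 12.8, 12.9 and 13.4 in KO mice, with means of 17.5 ± 1.2 and 13.02 ± 0.326 FPKM and a ratio of 0.744. Every KO mouse was below every WT mouse, and the 3 KO mice lay within 1.05-fold of one another. The difference was -0.40 on the log2(FPKM + 1) scale with an SE of 0.19 and a 95% interval of -0.82 to 0.02 (limma, adjusted p = 0.841). An exact permutation test gave p = 0.1, the smallest that 3 mice against 3 allow. The unadjusted p passed 0.05 when low values were not filtered and when the filter was raised to 5 FPKM, with an adjusted p of 0.749 and 0.772.

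Other measures moved with *Keap1*. Its transcript has a GC content of 58.0%, and over 13726 genes of these libraries the difference between KO and WT mice had a Spearman correlation of -0.35 with GC content. With a GC trend removed from each library the *Keap1* difference was -0.25 (limma, adjusted p = 1.0). Summed markers of fibroblasts (1205 to 1809 FPKM in WT and 800 to 1105 FPKM in KO mice), astrocytes (294 to 409 and 247 to 289 FPKM) and microglia (94.1 to 106 and 77.1 to 90.3 FPKM) were also lower in KO mice without overlap, with 2 of 5, 1 of 5 and 1 of 5 of the listed genes below WT in every KO mouse. The same held for 2 of 6 pericyte genes, *Pdgfrb* (36.9 to 45.6 in WT and 30.8 to 33.6 FPKM in KO mice) and *Anpep* (24.0 to 33.2 and 19.1 to 23.0 FPKM), for 2 of 5 oligodendrocyte genes, *Mobp* (12.5 to 18.2 and 4.77 to 8.04 FPKM) and *Cnp* (46.2 to 67.4 and 33.8 to 38.7 FPKM), and for the endothelial *Cdh5*. All 5 fibroblast and all 5 astrocyte genes had the lower mean in KO mice. The endothelial list was mixed, with *Pecam1* and *Slco1a4* higher by mean in KO mice. The pericyte, oligodendrocyte and microglia lists were mixed, since *Rgs5* (185, 171 and 114 FPKM in WT against 156, 258 and 149 in KO mice) of pericytes, *Mog* (4.5, 2.28 and 1.6 against 10.2, 5.97 and 0.986) of oligodendrocytes and *P2ry12* (8.22, 4.96 and 9.94 against 10.2, 16.4 and 8.11) of microglia had the higher mean in KO mice. Their part in the *Keap1* difference was not tested. An antisense transcript, *Gm16754*, shares 209 bases with *Keap1*, and since the strand setting of the counting is not given, their fragments cannot be told apart.

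*Nfe2l2*, which encodes Nrf2 itself, was at 28.9, 31.6 and 21.5 FPKM in WT mice and 20.7, 28.8 and 27.7 in KO mice. The groups overlapped widely (exact permutation p = 0.5, n = 3 each). The ratio of *Keap1* to *Nfe2l2* was 0.652, 0.525 and 0.796 in WT mice and 0.617, 0.448 and 0.484 in KO mice, which also overlapped (exact permutation p = 0.2, and 0.9 adjusted over 9 ratios). *Cul3*, the scaffold of the ligase, is not a member and was singled out after its values were seen. It was at 28.2, 30.4 and 34.2 FPKM in WT mice and 39.5, 37.1 and 45.9 in KO mice, so it was higher in every KO mouse while *Keap1*, its substrate adaptor, was lower. Its difference was 0.39 (limma, adjusted p = 0.841), and 0.19 with the GC trend removed. *Rbx1*, the RING subunit of the same ligase, overlapped, with means of 41.3 ± 7.73 FPKM in WT and 42.7 ± 9.54 FPKM in KO mice.

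**Figure D2:**
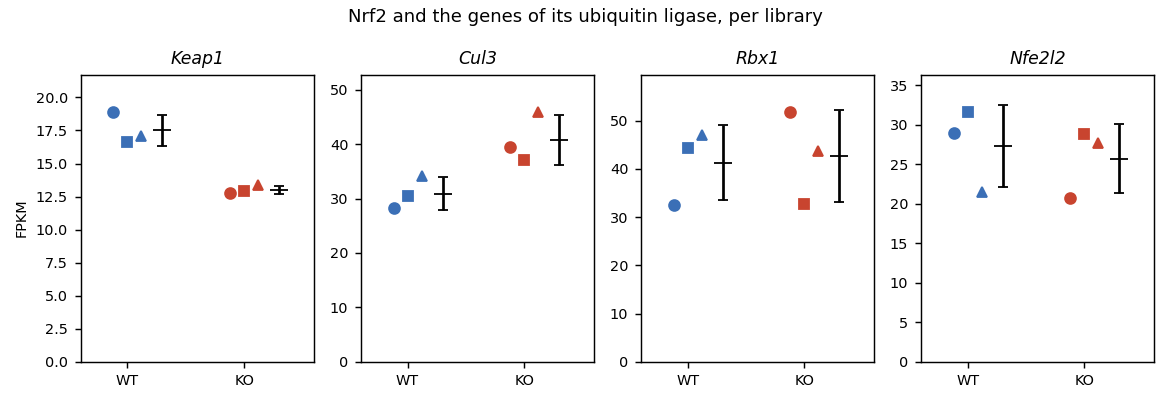
FPKM of *Keap1*, *Cul3*, *Rbx1* and *Nfe2l2* per mouse, WT in blue and KO in red, with black bars for the mean ± SD of 3 mice and axes from 0. *Keap1* lies lower and *Cul3* higher in all 3 KO mice, whereas the groups overlap in *Rbx1* and *Nfe2l2*.

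The detoxifying targets did not separate. *Nqo1*, the quinone reductase often read as a sign of active Nrf2, averaged 13.8 ± 1.39 FPKM in WT and 15.3 ± 4.86 FPKM in KO mice (exact permutation p = 0.7, n = 3 each). *Hmox1*, the inducible heme oxygenase of the endoplasmic reticulum, was the lowest of its family, at 8.63, 9.68 and 7.48 FPKM in WT mice and 9.38, 6.64 and 12.9 in KO mice. *Hmox2*, the constitutive form, was the highest, at 28.7, 31.4 and 34.7 FPKM in WT mice and 39.2, 21.1 and 33.3 in KO mice. For both heme oxygenases the KO values reached above and below the whole WT range. Over the 10 members that are textbook Nrf2 targets (*Prdx1*, *Srxn1*, *Txn1*, *Txnrd1*, *Gsr*, *Gclc*, *Gclm*, *Slc7a11*, *Nqo1* and *Hmox1*), 4 were higher and 6 lower in KO mice, and none passed the test. Their median difference was -0.03, and its direction turned without KO 2 (0.08) and without WT 3 (0.02).

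Promoter sequence was read for the letters of the antioxidant response element, since Nrf2 acts through it. The core TGACNNNGC was searched on both strands in the 250 bases before each RefSeq start (build GRCm38.p6). It was found in 5 of 40 windows of members (12.5%) and in 10.2% of 32851 windows of all genes. The matches belonged to 5 of the 29 members with a window, and are shown here with the core in capitals and up to 15 bases on either side, 5′ to 3′ on the strand of the gene, because they mark the members in which these letters lie close to the start. *Sod3*, *Prdx6*, *Gsr*, *Gclc* and *Hmox1* had no window.
Prdx1, chr4:116685451-116685489, plus strand, core on the opposite strand 133 bases before the start: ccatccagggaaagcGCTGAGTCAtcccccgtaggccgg
Gclm, chr3:122245408-122245446, plus strand, core on the opposite strand 134 bases before the start: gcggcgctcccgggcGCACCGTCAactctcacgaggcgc
Txnrd1, chr10:82859099-82859137, plus strand, core on the opposite strand 92 bases before the start: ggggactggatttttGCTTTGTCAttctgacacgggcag
Sod1, chr16:90220691-90220729, plus strand, core on the opposite strand 56 bases before the start: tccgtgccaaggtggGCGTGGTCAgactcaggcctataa
Nfe2l2, chr2:75704880-75704913, minus strand, core on the same strand 240 bases before the start: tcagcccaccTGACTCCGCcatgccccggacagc
Of these 5 genes, *Prdx1*, *Gclm* and *Sod1* had the higher mean in KO mice and *Txnrd1* and *Nfe2l2* the lower, and all 5 overlapped between the groups. A match is a description of letters and not of binding.

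The KO mice were not alike. KO 2 was the lowest of the 6 libraries in 14 of the 34 members (41.2%, against 25.0% of all genes tested) and below every WT mouse in 18 members (52.9%, against 32.6%). KO 1 and KO 3 were both above every WT mouse in 11 members (32.4%, against 16.3%). These were *Sod1*, *Cat*, *Gpx4*, *Gpx8*, *Prdx1*, *Prdx2*, *Prdx4*, *Prdx5*, *Prdx6*, *Gclm* and *Nqo1*. The median deviation of the members from their WT mean was 0.13 in KO 1, -0.31 in KO 2 and 0.18 in KO 3 on the log2 scale, and it lay between -0.02 and 0.01 over all genes. By family, KO 1 and KO 3 stood above the WT mean for the superoxide dismutases and catalase (0.36 and 0.28, with KO 2 at -0.44) and for the peroxiredoxins and sulfiredoxin (0.21 and 0.25, with KO 2 at -0.30). In KO 1, KO 2 and KO 3 the other families stood at 0.32, -0.38 and 0.03 (glutathione peroxidases), -0.28, -0.42 and 0.18 (thioredoxin system), -0.02, 0.10 and -0.08 (glutathione supply) and 0.12, -0.41 and 0.08 (Nrf2, Keap1 and detoxifying targets). The low values of KO 2 were shared by other genes of these pathways, where it was below every WT mouse in 44 of 82 (53.7%, against 32.6% of all genes tested). They were not a trait of the whole library, since KO 2 was above every WT mouse in 28.7% of all genes tested.

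**Figure D3:**
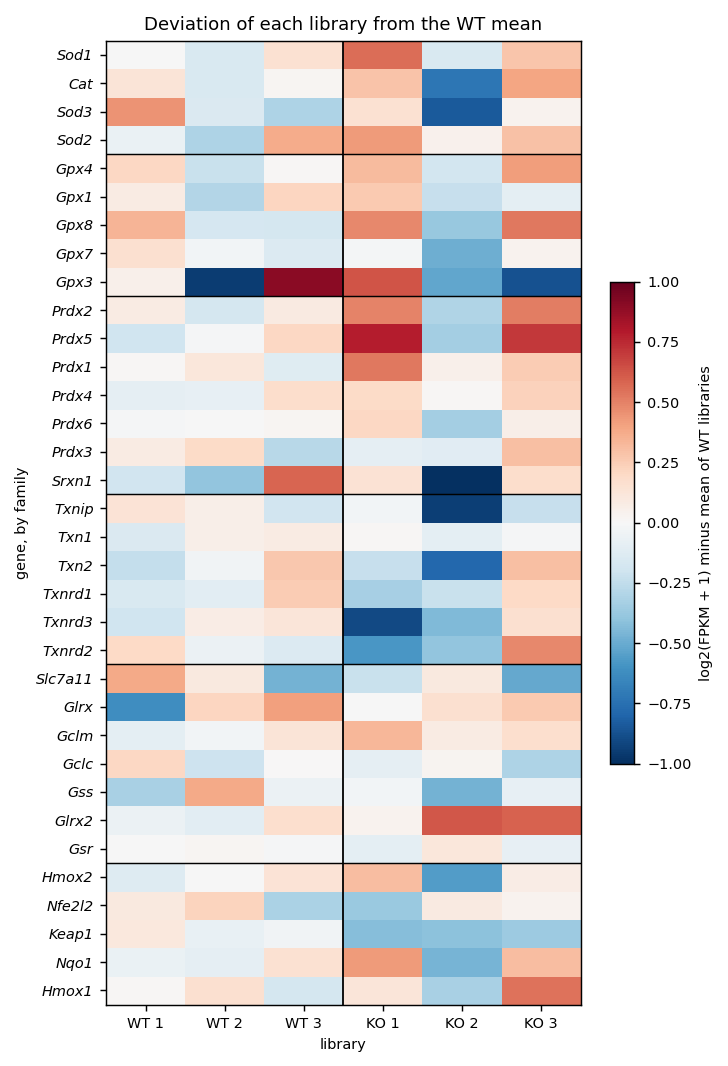
Deviation of each library from the WT mean of the gene, in log2(FPKM + 1), for the 34 genes in rows by family and the 6 libraries in columns, with red above and blue below and colors saturated at -1 and 1. The columns of KO 1 and KO 3 are mostly red in the upper 3 families, the column of KO 2 is mostly blue there, and *Keap1* is blue in all 3 KO columns.

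Without KO 2, 5 members had an unadjusted p under 0.05 and were higher in KO mice, against 7.31% of all genes, and 0 were lower, against 5.83%. These 5 were seen only after KO 2 was left out. *Prdx5* differed by 0.74, *Prdx2* and *Gpx8* by 0.50, *Sod1* by 0.42 and *Prdx1* by 0.39. After adjustment none was under 0.05, and the smallest value, that of *Prdx5*, was an adjusted p of 0.169 by limma. For *Prdx5*, *Prdx2*, *Gpx8*, *Sod1* and *Prdx1*, the differences were 0.38, 0.23, 0.21, 0.23 and 0.27 with all mice, 0.18, 0.10, 0.07, 0.06 and 0.15 without KO 1, and 0.22, 0.10, 0.05, 0.21 and 0.28 without KO 3. Without 1 of the WT mice *Gpx8* ranged from 0.12 (WT 3) through 0.13 (WT 2) to 0.38 (WT 1), and without WT 2 both *Prdx2* and *Sod1* stood at 0.15. For *Prdx5*, *Prdx2*, *Gpx8*, *Sod1* and *Prdx1* in turn, they were 0.53, 0.24, 0.09, 0.28 and 0.12 with the GC trend removed. With the length trend removed they were 0.36, 0.21, 0.17, 0.07 and 0.28. Removing a trend thus lowered some of these differences and raised others. The size of these differences also depended on single mice. The *Keap1* difference was -0.39 without KO 2 and thus did not rest on it.

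**Figure D4:**
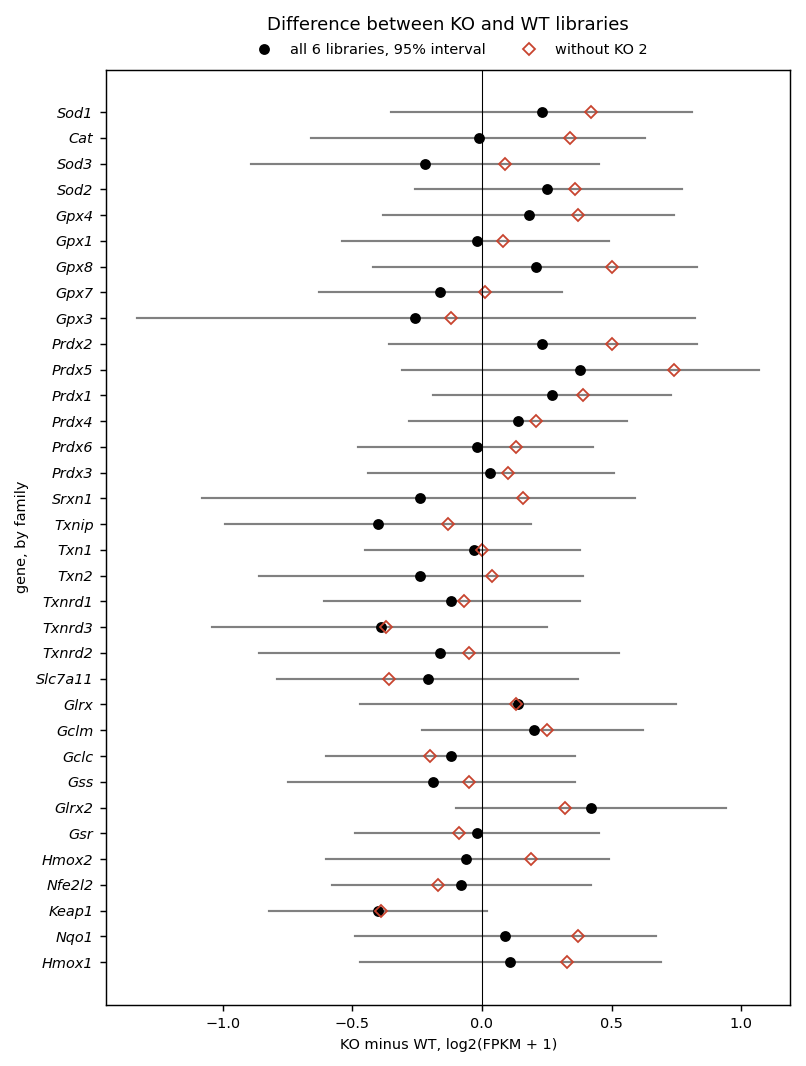
Difference of KO minus WT in log2(FPKM + 1) for the 34 genes, by family. Black points and grey lines give the estimate and its 95% interval from all 6 libraries and open red diamonds the estimate without KO 2. Every line crosses 0, most diamonds in the upper 3 families lie to the right of their points, and those of *Keap1* and *Txnrd3* stay in place.

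Several measures moved with this split. KO 1 and KO 3, the mice with high values in the 11 members, were also the libraries with choroid plexus marker sums of 8772 and 10524 FPKM, while the sum in KO 2 lay within the WT range. For *Ttr*, which encodes the transthyretin made by that tissue, the values were 3090, 2720 and 2630 FPKM in WT mice and 8260, 2770 and 9790 in KO mice. Transcript length moved with it too, as deviations from the WT mean had Spearman correlations with length of -0.31 in KO 1, 0.29 in KO 2 and -0.15 in KO 3 over 13726 genes. Over the 34 members, whose points share the same libraries, the correlation with length was -0.43 in KO 1, 0.04 in KO 2 and -0.28 in KO 3, and that with GC content was -0.01, -0.54 and -0.08. The 17 shorter members deviated by medians of 0.26 in KO 1 and 0.28 in KO 3, and the 17 longer ones by -0.03 and 0.16, while in KO 2 both were low, at -0.32 and -0.22. The part of tissue content, length, GC content or depth in the split was not tested.

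**Figure D5:**
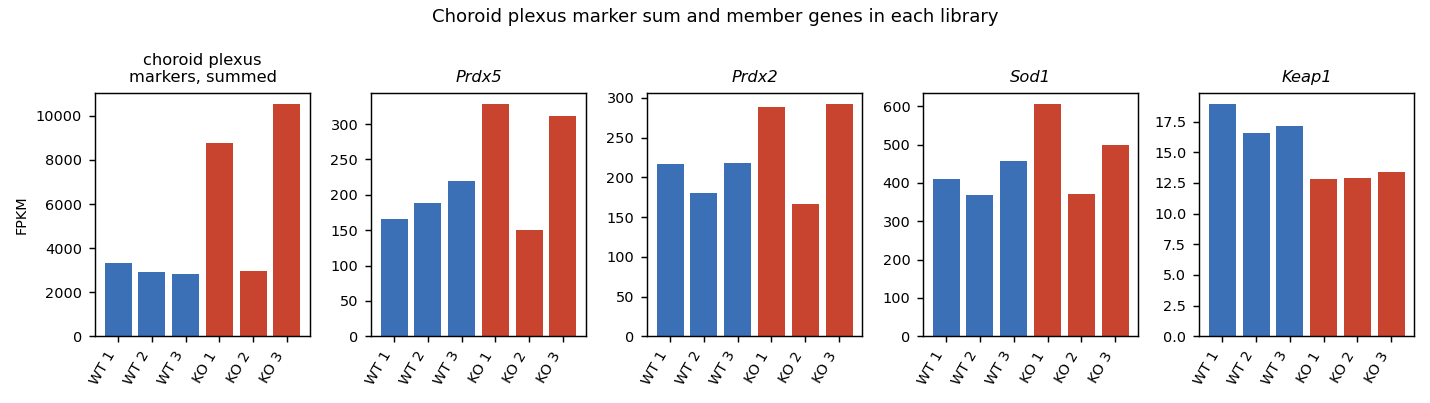
FPKM in each library, WT in blue and KO in red, for the sum of the choroid plexus markers *Ttr*, *Folr1*, *Kl* and *Clic6* and for *Prdx5*, *Prdx2*, *Sod1* and *Keap1*, with axes from 0. The marker sum, *Prdx5*, *Prdx2* and *Sod1* are highest in KO 1 and KO 3, whereas *Keap1* is level over the 3 KO mice.

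By compartment, no class of members separated the groups. The 6 mitochondrial members (*Sod2*, *Prdx3*, *Prdx5*, *Txn2*, *Txnrd2* and *Glrx2*), which share the organelle of the Crif1 protein, had a median difference of 0.14, with 4 higher and 2 lower in KO mice. This median was 0.06 without KO 3, 0.21 without KO 2 and 0.02 with the GC trend removed. Their summed level was 297, 327 and 370 FPKM in WT mice and 457, 260 and 486 in KO mice, and the groups overlapped. The 19 members of cytosol or nucleus had a median of -0.02, which was 0.08 without KO 2. The 5 of the endoplasmic reticulum had 0.11, which was 0.21 without KO 2, 0.03 without WT 3, 0.07 without KO 1 and -0.10 without KO 3. The secreted pair, *Sod3* and *Gpx3*, had a median of -0.24, which lay between -0.55 (without KO 1) and -0.02 (without KO 2) and moved by over 1.5 times with each of the 6 mice left out, so it has no firm size. Ratios of partners overlapped between the groups in all 9 pairs examined, with adjusted exact permutation p of at least 0.9. Mitochondrial *Prdx5* exceeded *Prdx3* by 3.81 to 6.5 times in WT and by 3.96 to 8.5 times in KO mice, and *Gclc* stood at 0.587 to 0.839 of *Gclm* in WT and at 0.468 to 0.643 in KO mice.

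Other genes of the Nrf2, glutathione, thioredoxin and NADPH pathways were counted in the same way. Of 94 listed genes 92 had a row and 82 were tested, with 41 higher and 41 lower in KO mice. Unadjusted limma p was under 0.05 for 3 genes higher (3.66%, against 2.77% of all genes) and 0 lower in KO mice (against 3.11%), and 0 had an adjusted p under 0.05. The share without overlap was 4.88% above and 1.22% below WT, against 5.37% and 5.7% of all genes, so neither exceeded the background. These were 4 genes higher in KO mice (*Chac2*, *Akr1b3*, *Nfe2l3* and *Cul3*) and 1 lower (*Taldo1*, transaldolase of the pentose phosphate pathway, at 67.4, 79.9 and 71.9 FPKM in WT and 63.7, 52.6 and 57.5 FPKM in KO mice). *Chac2*, an enzyme that degrades glutathione, was at 1.51, 1.43 and 2.92 FPKM in WT mice and 6.3, 3.03 and 4.03 in KO mice, a difference of 0.88 with an SE of 0.34 (limma, adjusted p = 0.841). *Akr1b3*, aldose reductase, was at 9.29, 24.2 and 10.9 FPKM in KO mice and 7.94 FPKM in WT 3, but was listed at 4.59e-04 and 4.49e-04 FPKM in WT 1 and WT 2, far under the value of 3 fragments. Its difference of 2.81 (limma, adjusted p = 0.841) became 4.97 with a pseudocount of 0.1 and therefore has no firm size. *Fth1* and *Ftl1*, the ferritin chains that store iron and are also Nrf2 targets, were the most abundant of the list and are named for that, at 1560 ± 153 and 857 ± 107 FPKM in WT mice and 1450 ± 330 and 788 ± 155 in KO mice, and both were lowest in KO 2.

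Some member values can hold fragments of other genes. *Hmox2* overlaps *Cdip1*, *Prdx5* overlaps *Trmt112* and *Txnip* overlaps the antisense gene *Gm15441*, with 767, 360 and 443 shared bases. *Sod1*, *Gpx4*, *Prdx1*, *Prdx2* and *Txn1* have processed copies with over 95% identity, and the long transcript of *Slc7a11* shares 373 bases with *Tuba1a*, *Tuba1b* and *Tuba1c* at that identity. How the authors' counting treated such fragments is not given in the sources used here.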

How the data were processed

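RNA of cerebral microvessels from 3 WT and 3 KO mice was sequenced as paired ends from directional libraries. The authors mapped reads with TopHat to mm10 (submitters' processing notes) and deposited FPKM values, 1 per gene symbol and library. The quantifier, its annotation and its strand setting are not given in the sources used here. The authors tested counts with DESeq2. Here log2(FPKM + 1) was tested with limma 3.58.1 in R 4.3.3 (trended variance, two-sided, no scaling) for the 14247 genes that averaged 1 FPKM or more in the 6 libraries, grouped by genotype label, with Benjamini-Hochberg adjustment over all of them. This scale understates fold changes of low genes. The fit was tested on simulated data. Single genes and ratios were also compared by exact two-sided permutation tests. The members, families, marker and pathway lists and the naming rule were chosen with earlier results of these data known. By that rule per-library values go to members with an unadjusted p under 0.05 or without overlap and to the highest and lowest of each family, and pathway genes are named when both hold. Other values were added after they were seen. Promoter windows came from RefSeq (GRCm38.p6) and shared transcript stretches from BLAST 2.17.0 (at least 95% identity over 200 bases). Alternatives were other filters and pseudocounts, median or quantile scaling, untrended variance, a replicate block, removal of GC or length trends, and each mouse left out.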

Additional observations from a re-analysis of the deposited data

How the results depend on the processing

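The result of 0 members with an adjusted p under 0.05 held in all 15 alternatives. The targeted gene *Crif1* did not reach that level in any of them either. In 16 of 34 members the sign of the difference was the same in all 15, and in 18 it changed in at least 1. The count of members lower in KO mice at an unadjusted p under 0.05 became 1 with no filter, with a mean of at least 5 FPKM (*Keap1* in both) and with quantile normalization (*Txnip*). Leaving out each mouse gave 0 to 5 members higher, 0 to 1 lower, 0 to 11 entirely above and 1 to 4 entirely below WT. The shares over all genes moved too, from 1.42% to 7.31%, 1.42% to 5.83%, 8.04% to 16.3% and 8.9% to 14.3%. Both the 5 and the 11 came without KO 2, where all-gene shares were 7.31% and 16.3%, and the 4 without KO 3, where it was 12.1%. It gave medians of -0.49 to -0.06 for the thioredoxin system, -0.13 to 0.19 for Nrf2, Keap1 and detoxifying targets, and -0.04 to 0.08 for the Nrf2 targets. *Keap1* was -0.40 with no filter (adjusted p = 0.749) and with a mean of at least 5 FPKM (adjusted p = 0.772), -0.25 with the GC trend removed and -0.44 to -0.35 with a mouse left out. Of the other pathway genes, 1 was higher with a mean of at least 5 FPKM and 1 lower with no filter, and leaving out a mouse gave 1 to 12 higher and 0 to 2 lower, the 12 without KO 2 (7.31% of all genes) and the 2 without WT 3 (2.72%). *Chac2* was 0.88 with no filter and 0.67 with the GC trend removed, 0.64 to 1.1 with a mouse left out, and was no longer under an unadjusted p of 0.05 in those 2 settings or without WT 1 (0.78), WT 2 (0.75) or KO 1 (0.64). The causes were not tested. Same-numbered mice did not deviate together (correlations of 0.037, 0.027 and 0.002). With 3 mice per group this cannot exclude that mice were paired by their numbers. These numbers follow the sample titles, and the column headers of the deposited files carry 4, 6 and 8 for WT 1, 2 and 3 and 1, 2 and 6 for KO 1, 2 and 3. By header WT 2 and KO 3 alone share a number, with a correlation of -0.049. The fit with the replicate block gave -0.40 for *Keap1*, 0 members under 0.05 and 871 genes against 838. Depth was lowest in KO 2, and FPKM of genes near the value of 3 fragments are least certain.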
